A study of Homo sapiens with 6 samples.

Results

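The zinc finger genes outside chromosome 19 were taken as the protein-coding genes whose symbol starts with ZNF, ZFP, ZSCAN or ZKSCAN, that lie on an autosome other than 19 (GRCh38) and that averaged at least 1 CPM (counts scaled to 1000000 gene counts in each library) over the libraries labelled knockout (KO) or over the WT libraries. Of 292 such genes listed in the count files, 248 reached that minimum and are the members described here, among 16568 identifiers of any kind that reached it. They comprised 216 ZNF, 13 ZFP, 13 ZSCAN and 6 ZKSCAN genes on 19 chromosomes. The minimum was met in both groups by 242 members, in the KO libraries only by ZNF804A, ZNF197 and ZSCAN16, and in the WT libraries only by ZNF334, ZNF727 and ZNF469. Genes that met it in 1 group only are members through the group where they were higher. For them a test between the groups is not independent of that choice. Of the 44 genes under the minimum, 23 were listed at 0 in all 6 libraries. The members nearest the minimum were ZNF469 and ZNF251, with 1.04 and 1.12 CPM in the higher group, and the genes just under it were ZFP2 and ZNF707, with 0.790 and 0.782 CPM.

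The study compared cells of the human line HEK-293T, derived from embryonic kidney and carrying SV40 large T antigen, after CRISPR/Cas9 targeting of C17orf80, which encodes a protein found at mitochondrial nucleoids. The KO libraries are labelled as C17orf80 knockout, and the WT libraries come from cells given a non-targeting guide RNA, with 3 libraries in each group. Both groups had the same medium, and puromycin at 3 μg/ml was used to select monoclonal cells. The labels do not say how many clones the 3 KO libraries represent, so a difference between clones and an effect of the targeting cannot be told apart, and p-values measure only the spread between these libraries.

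Most proteins with tandem C2H2 zinc fingers bind DNA through an array of fingers, and many of them carry a KRAB domain, which binds the corepressor TRIM28. TRIM28 brings in the histone methyltransferase SETDB1 and heterochromatin proteins, and many KRAB zinc finger proteins silence transposable elements in this way. A SCAN domain, which marks the ZSCAN and ZKSCAN genes, mediates pairing between zinc finger proteins, and the family arose largely by tandem duplication, so that many members still lie in clusters.

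Promoters of 6 members are shown because these genes had the largest differences: ZNF334 and ZNF727 had no count in the KO libraries, ZNF883 and ZNF804A rose most, and ZNF605 and ZNF84 rose most in the chromosome 12 cluster. Each is the RefSeq sequence (GRCh38.p14) from 250 bases before to 50 bases after the annotated start, 5′ to 3′ on the gene's own strand, with CG dinucleotides in capitals. The windows are chr20:46513510-46513809 (minus strand) for ZNF334, chr7:64045184-64045483 (plus strand) for ZNF727, chr9:113012143-113012442 (minus strand) for ZNF883, chr2:184598279-184598578 (plus strand) for ZNF804A, chr12:132956257-132956556 (minus strand) for ZNF605 and chr12:133037259-133037558 (plus strand) for ZNF84.
ZNF334: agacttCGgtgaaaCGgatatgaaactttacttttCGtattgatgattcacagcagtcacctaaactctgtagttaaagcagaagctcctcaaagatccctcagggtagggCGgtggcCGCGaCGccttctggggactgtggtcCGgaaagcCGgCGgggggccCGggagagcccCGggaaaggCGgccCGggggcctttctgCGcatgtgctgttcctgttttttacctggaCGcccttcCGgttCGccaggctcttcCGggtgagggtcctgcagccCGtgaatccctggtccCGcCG
ZNF727: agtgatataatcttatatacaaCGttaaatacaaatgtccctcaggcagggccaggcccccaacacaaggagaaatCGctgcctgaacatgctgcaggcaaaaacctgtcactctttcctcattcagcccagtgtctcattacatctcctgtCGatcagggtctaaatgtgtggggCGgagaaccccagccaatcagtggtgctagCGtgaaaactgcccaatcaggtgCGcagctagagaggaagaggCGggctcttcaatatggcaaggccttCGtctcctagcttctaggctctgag
ZNF883: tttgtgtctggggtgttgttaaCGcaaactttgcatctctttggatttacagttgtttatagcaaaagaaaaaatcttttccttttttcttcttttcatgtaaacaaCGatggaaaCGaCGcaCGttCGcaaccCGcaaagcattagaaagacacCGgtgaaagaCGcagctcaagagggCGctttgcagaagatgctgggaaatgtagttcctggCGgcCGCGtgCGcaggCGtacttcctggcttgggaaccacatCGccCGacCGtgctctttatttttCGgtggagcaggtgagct
ZNF804A: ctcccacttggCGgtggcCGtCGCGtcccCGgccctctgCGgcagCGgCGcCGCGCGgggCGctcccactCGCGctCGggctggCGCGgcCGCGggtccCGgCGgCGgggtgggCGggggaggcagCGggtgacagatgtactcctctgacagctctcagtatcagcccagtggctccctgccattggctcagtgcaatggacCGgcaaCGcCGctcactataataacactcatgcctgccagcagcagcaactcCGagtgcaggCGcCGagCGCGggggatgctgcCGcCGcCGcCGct
ZNF605: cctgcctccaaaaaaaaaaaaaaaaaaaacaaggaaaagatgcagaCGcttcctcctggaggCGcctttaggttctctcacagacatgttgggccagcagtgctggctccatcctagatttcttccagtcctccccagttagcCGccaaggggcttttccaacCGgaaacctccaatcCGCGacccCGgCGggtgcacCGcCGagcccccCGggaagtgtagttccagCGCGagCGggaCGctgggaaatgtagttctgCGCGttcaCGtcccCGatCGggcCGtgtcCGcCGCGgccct
ZNF84: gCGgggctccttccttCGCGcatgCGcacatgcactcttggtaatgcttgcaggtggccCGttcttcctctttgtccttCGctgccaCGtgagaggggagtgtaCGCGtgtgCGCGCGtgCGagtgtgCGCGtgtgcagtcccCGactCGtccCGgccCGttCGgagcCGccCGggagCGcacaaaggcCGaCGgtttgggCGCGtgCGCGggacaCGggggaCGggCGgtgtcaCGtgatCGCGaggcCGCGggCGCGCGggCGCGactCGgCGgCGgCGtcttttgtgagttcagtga

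The 6 windows held 22 (ZNF334), 8 (ZNF727), 19 (ZNF883), 36 (ZNF804A), 24 (ZNF605) and 46 (ZNF84) CG dinucleotides. Over the 206 members with a RefSeq promoter the median was 25, against 22 over 14584 promoters of autosomal protein-coding genes, and the median ratio of observed to expected CG was 0.839, against 0.772. The ratio had a median of 0.883 in the 38 matched members that were higher in the KO libraries and of 0.864 in the 12 that were lower. It was 0.817 in the 156 not called. The ranges between the lower and upper quartile overlapped: 0.73 to 0.95, 0.75 to 0.96 and 0.71 to 0.93, in the same order. Letters of 4 motifs were searched on both strands. The fixed core of the site bound by ZNF143 stood in 4 member promoters (1.94%), against 0.391% of all autosomal ones. The palindromic site of NRF1 stood in 7 (3.40%), against 1.74%, and it is in the ZNF84 promoter printed above. TGACGTCA, a cyclic AMP response element, stood in 7 (3.40%), against 2.70%, and AAGATGGC, a YY1 site, in 7 (3.40%), against 3.99%. These matches are a description of letters in the windows. The autosomal promoters set beside the members were taken without the CPM minimum that the members met, so the sets also differ in expression.

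Gene counts summed to 15942017, 15982721 and 16122771 in the KO libraries and to 14982340, 16278091 and 15865404 in the WT libraries. C17orf80 itself was higher in the KO libraries, with 47.9, 43.7 and 43.3 CPM, against 26.5, 27.7 and 30.0 CPM in the WT libraries (log2 fold change 0.78 ± 0.17 SE, adjusted p = 0.0232, edgeR). Its transcript level does not show the knockout, and neither the protein nor the edited site was examined here. The group is therefore called the libraries labelled knockout, or KO libraries. The call of C17orf80 was kept in 2 of the 6 fits that left out a library, those without KO replicate 1 or 2. KO replicate 1 stood apart: it had 11.9% mitochondrial gene counts, against 4.53 to 5.00% in the other KO libraries and 4.65 to 4.71% in the WT libraries, and correlated at r = 0.932 and 0.945 with the other KO libraries across genes, which correlated at 0.987 with each other. Of the members, 42.3% were at least 1.5-fold apart between KO replicate 1 and the mean of KO replicates 2 and 3, against 4.84% between KO replicates 2 and 3. Among all protein-coding genes at the same minimum these shares were 49.4% and 5.95%. These comparisons use CPM on library totals. The scaling factor (TMM) that the edgeR fit applied was 0.851 for KO replicate 1, against 1.03 to 1.04 in the other libraries. CPM of KO replicate 1 are therefore lower, beside those of the other libraries, than the values that the fit compares. Of 14 kidney and HEK-293 line genes 11 were tested, 2 rose (INA and WT1) and 2 fell (NEFL and EYA1). Each of these calls was kept in all 6 fits without a library. Over all genes tested 8.64% rose and 6.5% fell. INA had 28.8, 24.6 and 25.5 CPM in the KO libraries, against 0 in each WT library. Log2 fold changes were 1.67 for WT1, -1.48 for NEFL and -1.41 for EYA1. Summed markers of fibroblasts, leukocytes, endothelium and liver were 0 to 34.9 CPM in KO libraries and 0.0614 to 50.4 CPM in WT libraries, with COL1A2, PTPRC, CD3E, CDH5 and TTR at 0 in all 6. Of 6 fibroblast genes 3 were tested, LUM rose and COL1A1 fell, and their part in the results was not tested.

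More members rose than fell in the KO libraries. In edgeR's quasi-likelihood test, fitted over 17452 genes with Benjamini-Hochberg adjustment and a threshold of 0.05, 43 of 248 members (17.3%) were higher, against 8.64% of all genes tested, and 14 (5.65%) were lower, against 6.5% of all genes; together the 57 called were 22.98% of the members, against 15.1%. Of the 248 members, 28 were called higher by at least 2-fold (background 5.89% of genes tested) and 10 lower (background 3.75%). At least 2-fold differences thus made up 28 of the 43 rises, against 1028 of 1507 rises among all genes tested. They made up 10 of the 14 falls, against 655 of 1134. The median log2 fold change of the members was 0.19, against 0.01 over all genes, and 162 of the 248 were positive. Each KO library lay above each WT library for 83 members (33.5%, background 20.8%), and each KO library lay under each WT library for 47 (18.95%, background 26.7%). These separations, like their backgrounds, were counted in CPM on library totals, in which KO replicate 1 lies lower than on the scale of the fit. The 57 called members included none whose groups overlapped.

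The share of all gene counts that fell on the members was 0.979, 0.985 and 0.985% in the KO libraries and 0.947, 0.959 and 0.951% in the WT libraries, so the groups did not overlap in this share either. On chromosome 19, set beside them, 94 of 201 tested genes of the same symbols were higher and 2 lower, with a median log2 fold change of 0.90; the difference between both sets was not tested. By prefix, 37 ZNF, 2 ZFP, 3 ZSCAN and 1 ZKSCAN genes rose, and all 14 that fell were ZNF genes.

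The number of calls depended on single libraries. Without KO replicate 1, 93 members were higher (background 22.3%) and 41 lower (background 21.7%), and all 57 members called with 6 libraries were called the same way. Without KO replicate 2 the counts were 44 (background 9.04%) and 16 (5.91%), and without KO replicate 3 they were 22 (4.29%) and 6 (2.19%). Without WT replicate 1 they were 11 (2.28%) and 3 (1.35%), without WT replicate 2 they were 14 (2.35%) and 3 (1.34%), and without WT replicate 3 they were 11 (2.2%) and 3 (1.33%). The call was kept in all 6 of these fits for 11 members that rose (ZNF669, ZNF496, ZNF804A, ZNF620, ZSCAN12, ZNF883, ZNF239, ZNF605, ZNF26, ZNF84 and ZNF594) and for 3 that fell (ZNF608, ZNF467 and ZNF334). For other named members, the fits that lost or kept the call are given with the gene or cluster.

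**Figure D1:**
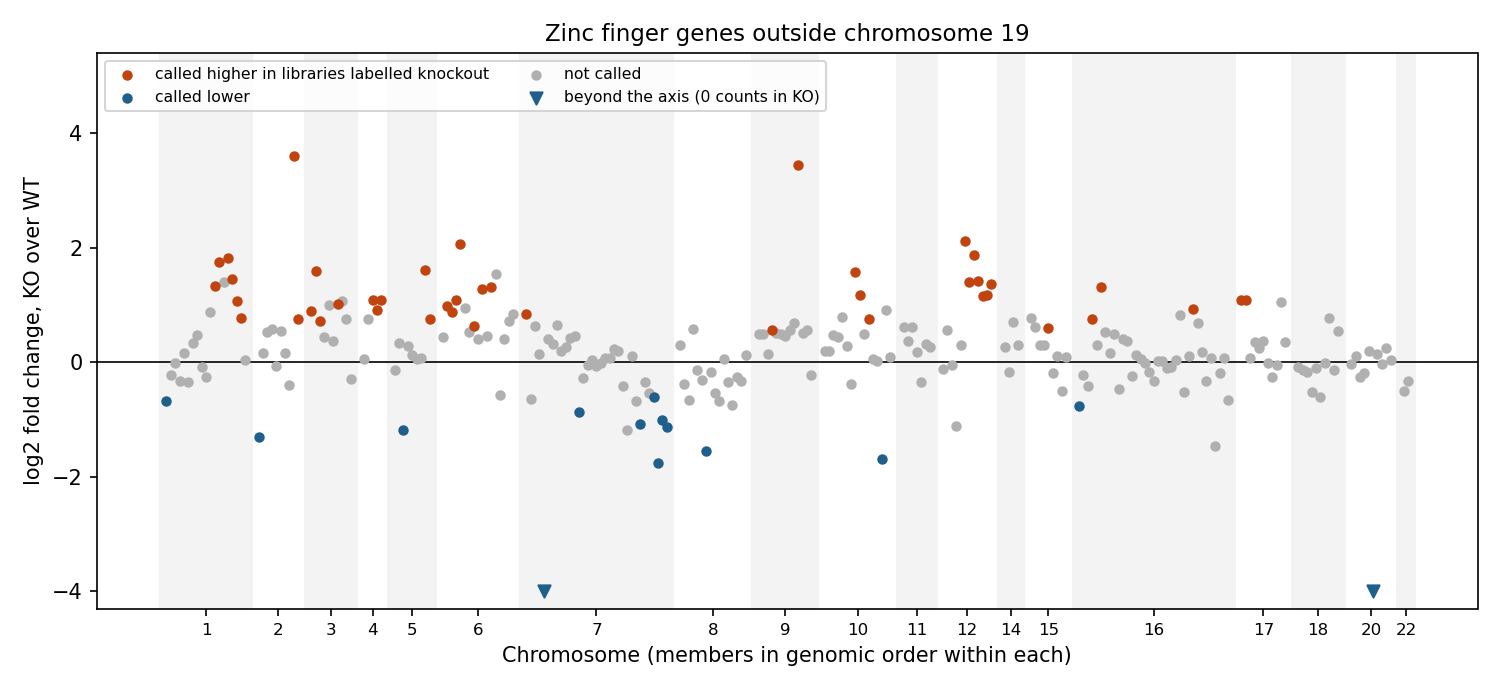
Log2 fold change (KO over WT, edgeR; y axis) of each of the 248 members in genomic order by chromosome (x axis), coloured by whether the member was called higher, lower or not; triangles mark ZNF727 and ZNF334, which lie beyond the axis with 0 counts in KO libraries. The 7 rises of chromosome 12 stand together, and 7 of the 14 falls lie on chromosome 7.

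In both on-off members the KO libraries were the empty ones. ZNF334 (chr20:46462313-46513559), a KRAB zinc finger gene, had 0 counts in each of the 3 KO libraries, against 8.94, 10.6 and 10.9 CPM (134, 173 and 173 counts) in the WT libraries. All KO libraries were empty and all WT libraries were well above the floor of 3 counts over a group, so ZNF334 was at least 163-fold lower in KO libraries (adjusted p = 0.0007, edgeR, call kept in all 6 fits without a library). Its neighbour ELMO2, which lies 55.7 kb away and encodes an engulfment and motility protein, had a log2 fold change of -0.15 (adjusted p = 0.449), and OCSTAMP, 27.4 kb away on the other side, was near 0 in both groups.

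ZNF727 (chr7:64045434-64085339) also had 0 counts in each KO library, against 0.868, 1.78 and 0.819 CPM in the WT libraries. With 13, 29 and 13 counts, the WT libraries did not overlap the KO libraries, and ZNF727 was at least 18.7-fold lower in KO libraries. The test passed (adjusted p = 0.015, edgeR), and the call was kept in the 3 fits that left out a KO library but in none that left out WT replicate 1, 2 or 3. Its neighbours ZNF722 and ZNF735 were at 0 in both groups. Taking a mean of at least 1 CPM in one group and under 0.1 CPM in the other as the rule, ZNF334 and ZNF727 were the 2 members high in WT libraries (0.806% of members, background 0.338% of protein-coding genes), and 0 members were high in KO libraries (background 0.495%). This rule picks genes by the group means that the test compares, so the p-values of ZNF334 and ZNF727 are no separate support.

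Among genes that rose, ZNF804A and ZNF883 had the largest changes, and both lie outside clusters. ZNF804A (chr2:184598529-184939492), known from association with schizophrenia, had 5.27, 4.76 and 3.10 CPM in the KO libraries, against 0.667, 0.307 and 0.189 CPM in the WT libraries. Every KO library was above every WT library (log2 fold change 3.59 ± 0.51 SE, adjusted p = 0.00551, edgeR), and the difference was 3.34 without KO replicate 1. ZNF804A is a member through the KO libraries only, so neither the separation nor the test is independent of that choice. Its protein-coding neighbours lie far off: NUP35, 1437 kb away, had a log2 fold change of 0.39 (adjusted p = 0.181) and FSIP2, 798 kb away, one of 1.66 (adjusted p = 0.0734).

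ZNF883 (chr9:112988129-113012192) had 15.4, 9.13 and 8.37 CPM in the KO libraries, against 1.13, 1.04 and 1.13 CPM in the WT libraries. The WT libraries were nearly alike and KO replicate 1 was the highest of the KO libraries (log2 fold change 3.44 ± 0.39 SE, adjusted p = 0.00249, and 2.98 without KO replicate 1). ZFP37, another zinc finger gene 26.2 kb from ZNF883, averaged 7.86 CPM in KO libraries and 5.91 CPM in WT libraries and was not called (log2 fold change 0.51, adjusted p = 0.224).

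**Figure D2:**
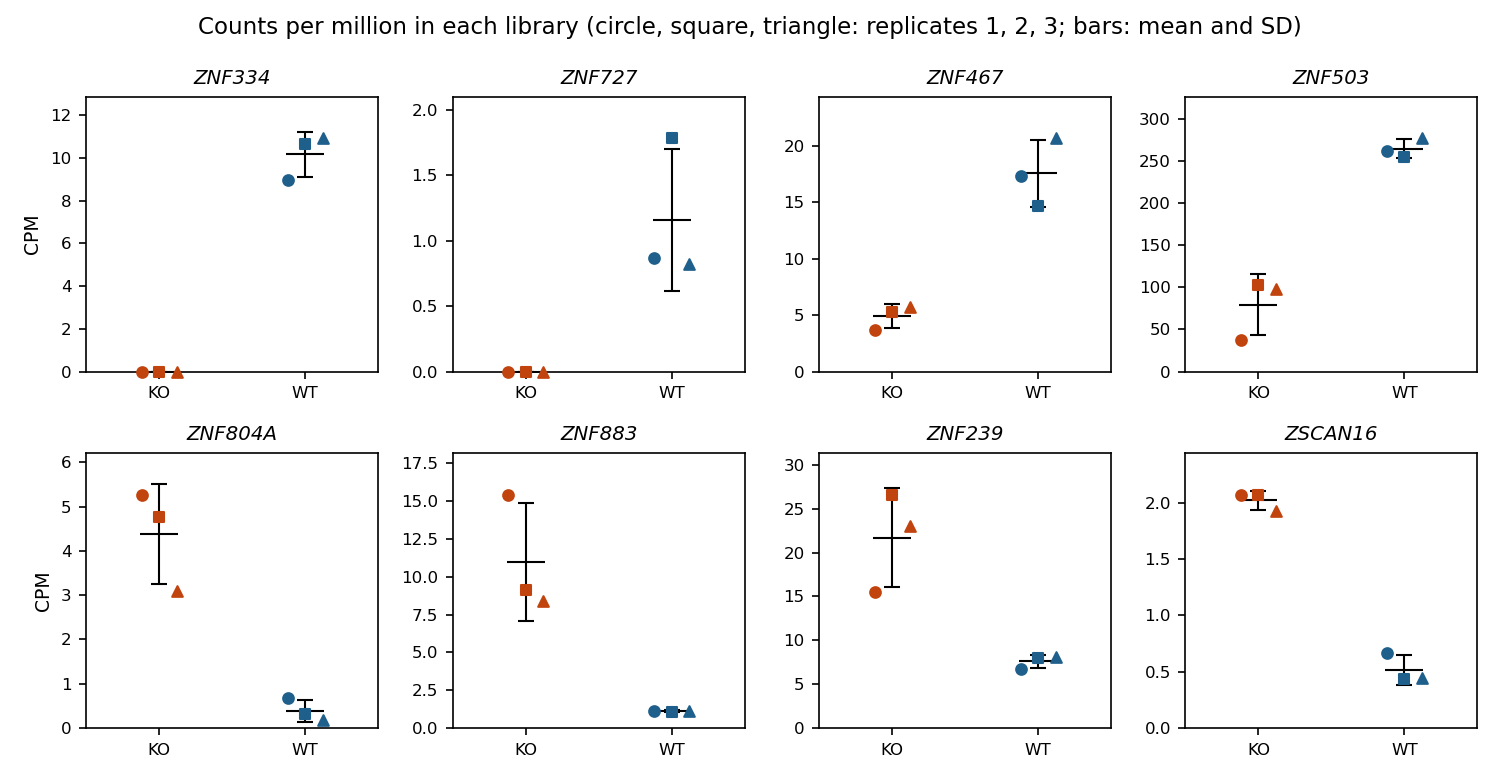
CPM (linear y axis, from 0) in each KO library and each WT library for 8 members, where symbols are the replicates and bars the mean and SD of 3 libraries. The 8 were drawn from the on-off members and from the largest changes without overlap, so the gap between groups follows from how they were chosen. ZNF334 and ZNF727 lie at 0 in all KO libraries.

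A cluster was taken as a run of at least 3 zinc finger genes of these symbols with at most 500 kb between neighbours, which gave 24 clusters. Of the 117 members in clusters 28 rose and 6 fell (median log2 fold change 0.19), and of the 131 outside clusters 15 rose and 8 fell (median 0.20). Over all genes tested, 8.64% rose and 6.5% fell. The changes were unevenly spread among clusters: in 8 of them 2 or more members were called, always in a single direction, and 1 of those 8 held falls.

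The cluster at the end of the long arm of chromosome 12 (chr12:132918306-133214832) rose throughout, with 7 of 7 members called higher. They are ZNF605, ZNF26, ZNF84, ZNF140, ZNF891, ZNF10 and ZNF268, KRAB zinc finger genes of which ZNF10 (KOX1) supplied the KRAB repressor domain widely used in engineered repressors. Their summed level was 351, 263 and 275 CPM in the KO libraries, against 107, 112 and 111 CPM in the WT libraries. All KO sums were more than double every WT sum (mean 297 ± 48.0 CPM in KO libraries and 110 ± 2.40 CPM in WT libraries, SD, n = 3 each, log2 ratio 1.43, or 1.29 without KO replicate 1).

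ZNF605 had the largest change of the cluster, with 59.4, 43.8 and 40.7 CPM in the KO libraries, against 13.1, 11.7 and 11.3 CPM in the WT libraries (log2 fold change 2.12 ± 0.25 SE, adjusted p = 0.00295). ZNF84 had 98.3, 76.0 and 81.4 CPM in the KO libraries, against 23.4, 25.6 and 26.7 CPM in the WT libraries (1.87 ± 0.21 SE, adjusted p = 0.00222). In both genes KO replicate 1 was highest and the groups lay far apart. ZNF26 had 36.2, 37.9 and 43.3 CPM in the KO libraries, against 16.7, 14.3 and 16.2 CPM in the WT libraries (1.40 ± 0.15 SE, adjusted p = 0.00191). Here KO replicate 1 was the lowest of the KO libraries in CPM, an order that the scaling factors of the edgeR fit do not keep.

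ZNF268 had 60.0, 33.2 and 37.6 CPM in the KO libraries, against 19.1, 18.6 and 17.96 CPM in the WT libraries (log2 fold change 1.36 ± 0.30 SE, adjusted p = 0.0263). ZNF10 had 12.9, 11.1 and 12.6 CPM in the KO libraries, against 4.61, 6.39 and 6.43 CPM in the WT libraries (1.17 ± 0.23 SE, adjusted p = 0.0172). ZNF140 and ZNF891 had log2 fold changes of 1.42 and 1.16. Their annotated spans overlap, and how reads in the shared stretch were counted is not given. The 8 other protein-coding genes tested within the cluster or 500 kb of it had a median log2 fold change of -0.0041, and 0 of 8 were called in edgeR, DESeq2 or limma-voom, 0 had an unadjusted edgeR p under 0.05, and 1 was called higher without KO replicate 1. The number of members called was 7 without KO replicate 1 or 2, 6 without KO replicate 3, and 3 without WT replicate 1, 2 or 3, the 3 being ZNF605, ZNF26 and ZNF84.

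On chromosome 1, near the long-arm end (chr1:246945546-247331867), 4 of 5 members rose. The summed level was 99.7, 95.7 and 88.6 CPM in the KO libraries, against 44.5, 43.9 and 41.9 CPM in the WT libraries, and all KO sums lay well above all WT sums. ZNF669 had 5.46, 6.95 and 8.001 CPM in the KO libraries, against 1.87, 1.84 and 2.40 CPM in the WT libraries (log2 fold change 1.82 ± 0.24 SE, adjusted p = 0.00411). ZNF496, a SCAN and KRAB gene, had 54.1, 69.0 and 56.4 CPM in the KO libraries, against 31.1, 31.9 and 28.4 CPM in the WT libraries (1.06 ± 0.14 SE, adjusted p = 0.00477). In CPM, KO replicate 1 was the lowest KO library in both of these genes, whereas it was the highest in ZNF695 and ZNF124. With the scaling factors of the edgeR fit it stays the lowest in ZNF669 but not in ZNF496.

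ZNF695 had 9.41, 4.76 and 5.21 CPM in the KO libraries, against 2.27, 2.09 and 1.95 CPM in the WT libraries (log2 fold change 1.75, adjusted p = 0.0265), and it shares sequence with the ZNF670-ZNF695 readthrough gene. ZNF124 had a log2 fold change of 1.46 (adjusted p = 0.028), and ZNF670, at 1.41, was not called (adjusted p = 0.0611). Here the genes around the cluster moved too: all 5 other protein-coding genes tested within it or 500 kb of it were called higher, with a median log2 fold change of 1.08. The calls numbered 5 without KO replicate 1 or 2, 3 without KO replicate 3 and 2 without WT replicate 1, 2 or 3.

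On chromosome 6, in the zinc finger cluster next to the major histocompatibility complex (chr6:28080282-28443491), 5 of 10 members rose and each KO library lay above each WT library in all 10. Its members are 6 ZSCAN genes, 3 ZKSCAN genes and ZNF165, and those called were ZSCAN12, ZSCAN16, ZSCAN31, ZKSCAN4 and ZNF165, the last a gene expressed mainly in testis and tumours. Summed levels were 381, 282 and 292 CPM in the KO libraries, against 186, 188 and 171 CPM in the WT libraries. The highest sum was that of KO replicate 1, and the log2 ratio of the sums was 0.81, or 0.66 without it.

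ZSCAN12 had 69.4, 61.1 and 64.5 CPM in the KO libraries, against 28.6, 28.6 and 27.0 CPM in the WT libraries (log2 fold change 1.31 ± 0.17 SE, adjusted p = 0.0038). ZSCAN16, one of the members below 1 CPM in WT libraries, had 2.07, 2.06 and 1.92 CPM in the KO libraries, against 0.667, 0.430 and 0.441 CPM in the WT libraries (2.06 ± 0.36 SE, adjusted p = 0.0127); it overlaps the antisense gene ZSCAN16-AS1, and no source used here says whether counting used strand. The spread within each group was small beside the gap between groups in both genes. ZSCAN31, ZNF165 and ZKSCAN4 had log2 fold changes of 1.28, 1.09 and 0.64, and the 5 members not called (ZKSCAN8, ZSCAN9, ZSCAN26, ZKSCAN3 and ZSCAN23) had 0.41 to 1.54. Of 4 other genes tested nearby 1 was higher, with a median of 1.02. The calls numbered 9 without KO replicate 1, 5 without KO replicate 2, 2 without KO replicate 3 and 1, that of ZSCAN12, without WT replicate 1, 2 or 3.

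On chromosome 3 (chr3:40477122-40539782), all of ZNF619, ZNF620 and ZNF621 rose. Their summed level was 188, 201 and 219 CPM in the KO libraries, against 117, 117 and 124 CPM in the WT libraries. ZNF620 had 37.8, 32.9 and 33.5 CPM in the KO libraries, against 14.5, 11.9 and 10.7 CPM in the WT libraries (log2 fold change 1.60 ± 0.20 SE, adjusted p = 0.00386). ZNF621 carried most of the counts, with 135, 154 and 173 CPM in the KO libraries, against 95.2, 97.3 and 104 CPM in the WT libraries (0.73 ± 0.13 SE, adjusted p = 0.0119). Groups were separate in all 3 genes. Of the 2 other genes tested nearby 0 were called in edgeR, DESeq2 or limma-voom, 0 had an unadjusted edgeR p under 0.05, and both were called higher without KO replicate 1. Without WT replicate 1, 2 or 3 or KO replicate 3 only the call of ZNF620 was kept, while without KO replicate 2 that of ZNF619 was lost.

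Smaller groups of rises lay on chromosomes 10, 16 and 17. ZNF239 had 15.5, 26.6 and 23.01 CPM in the KO libraries, against 6.74, 7.99 and 8.07 CPM in the WT libraries (log2 fold change 1.58 ± 0.19 SE, adjusted p = 0.00327), and its neighbour ZNF485 rose by 1.17 on the log2 scale (adjusted p = 0.0166, lost without WT replicate 1 or 3). In ZNF239 the lowest KO library was replicate 1, and the other 2 members of that chromosome 10 cluster (chr10:43436848-43648881) were not called. On chromosome 16 (chr16:3088890-3443504) 2 of 8 members rose, ZNF75A (1.31, adjusted p = 0.00681, lost without WT replicate 1 or 3) and ZNF200 (0.75, adjusted p = 0.0136, lost without KO replicate 3 or any WT library). On chromosome 17 (chr17:5078467-5191868) both members rose: ZNF594 had 20.4, 26.1 and 27.7 CPM in the KO libraries, against 12.7, 12.7 and 11.5 CPM in the WT libraries (1.09 ± 0.15 SE, adjusted p = 0.00446), and ZNF232, a SCAN gene, rose by 1.08 (adjusted p = 0.0174, lost without KO replicate 3 or any WT library). ZNF594 and ZNF232 both overlap USP6, so reads in the shared stretch cannot be assigned to either from counts without strand.

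The chromosome 7 cluster near the long-arm end (chr7:149069641-149867479) went the other way: 4 of 10 members fell in edgeR, against 5 in DESeq2, 5 in limma-voom and 7 at an unadjusted edgeR p under 0.05, and 0 rose in any of these. Its summed level was 199, 344 and 312 CPM in the KO libraries, against 450, 432 and 431 CPM in the WT libraries. The sum of KO replicate 1 was far under those of the other KO libraries, and the log2 ratio of sums was -0.62, or -0.42 without it. ZNF467, which in mouse promotes fat over bone cell formation from marrow stromal cells, had 3.70, 5.32 and 5.71 CPM in the KO libraries, against 17.4, 14.7 and 20.7 CPM in the WT libraries (log2 fold change -1.76 ± 0.21 SE, adjusted p = 0.00295). It fell in all 3 KO libraries, and overlaps the pseudogene SSPOP.

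ZNF212 had 9.10, 23.8 and 18.7 CPM in the KO libraries, against 39.9, 38.3 and 35.6 CPM in the WT libraries (log2 fold change -1.09 ± 0.27 SE, adjusted p = 0.0372). ZNF862 had 5.58, 8.45 and 8.62 CPM in the KO libraries, against 15.2, 16.7 and 16.2 CPM in the WT libraries (-1.01 ± 0.18 SE, adjusted p = 0.0119). ZNF746 (PARIS), a substrate of the ubiquitin ligase parkin and repressor of PPARGC1A, had 36.4, 53.7 and 49.3 CPM in the KO libraries, against 78.0, 75.3 and 69.3 CPM in the WT libraries (-0.60 ± 0.14 SE, adjusted p = 0.0314). KO replicate 1 was the lowest library in all 3 genes, and the groups did not overlap. The 6 members not called had -1.19 (ZNF425, adjusted p = 0.0515) to 0.10 (ZNF398), and of 6 other genes tested nearby 1 was lower, with a median of -0.59. The calls numbered 7 without KO replicate 1, 5 without KO replicate 2, 2 without KO replicate 3 and 1, that of ZNF467, without WT replicate 1, 2 or 3.

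**Figure D3:**
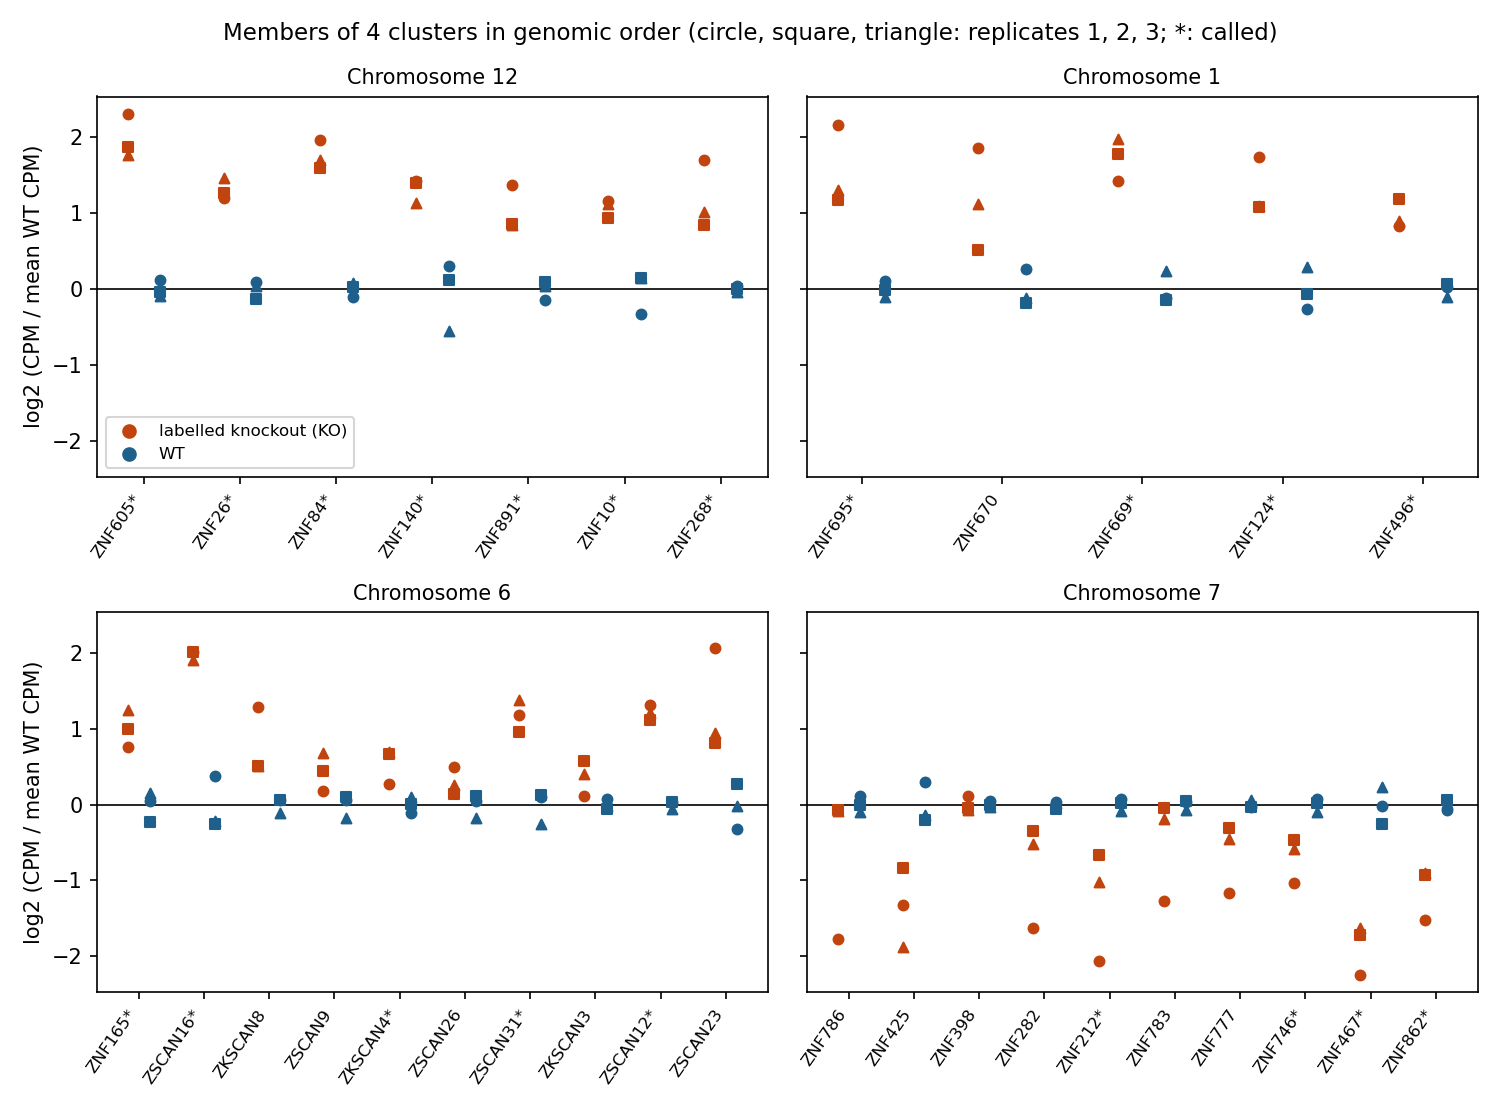
Log2 of the CPM in each library over the mean WT CPM (y axis) for the members of the clusters on chromosomes 12, 1, 6 and 7 in genomic order (x axis), KO libraries left of WT libraries for each gene, with an asterisk on called members. KO libraries lie above WT libraries for every member on chromosomes 12, 1 and 6, and under them for 7 of 10 members on chromosome 7, where KO replicate 1 (circle) is often lowest.

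The other clusters held 1 called member or none with all 6 libraries. Besides ZNF727, 0 of the other 7 members near the chromosome 7 centromere (chr7:63998849-65401136) were called in edgeR, DESeq2 or limma-voom (1 had an unadjusted edgeR p under 0.05, and 2 were called higher without KO replicate 1), with log2 fold changes of 0.19 to 0.65. The largest cluster by members, 13 genes at chr16:30378312-31917357, had 0 called members in edgeR, DESeq2 or limma-voom (1 at an unadjusted edgeR p under 0.05) and a median of 0.02, with summed levels of 283, 547 and 487 CPM in the KO libraries, against 446, 435 and 440 CPM in the WT libraries. KO replicate 1 was the lowest there and the other KO libraries the highest, and without KO replicate 1 the calls were 4 higher and 1 lower. On chromosome 18 (chr18:35241034-35377337), 0 of 4 members were called in edgeR, DESeq2 or limma-voom with all libraries (1 at an unadjusted edgeR p under 0.05) and all 4 were lower without KO replicate 1, and the summed level was 446, 313 and 352 CPM in the KO libraries, against 453, 472 and 453 CPM in the WT libraries.

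By chromosome, 7 of 12 members rose on 12 (all in its cluster), 7 of 17 on 6, 4 of 10 on 3, 3 of 5 on 4 and 6 of 19 on 1. Chromosome 7 held 7 of the 14 falls among its 33 members. The shares over all genes tested were 8.64% higher and 6.5% lower. The medians of the members were 1.17 on chromosome 12, 0.84 on chromosome 6 and -0.02 on chromosome 7, against 0.04, 0.09 and -0.24 for the other protein-coding genes of the same chromosomes. Chromosome 4 members had a median of 0.91, against 0.54 for its other genes. For chromosomes 3 and 1 the medians were 0.82 and 0.34, against 0.29 and -0.25. On chromosomes 11, 14, 18 and 22, 0 of 7, 0 of 4, 0 of 10 and 0 of 2 members were called in edgeR, DESeq2 or limma-voom, against 1, 1, 3 and 0 at an unadjusted edgeR p under 0.05 and 2, 3, 9 and 1 without KO replicate 1. In the fit without KO replicate 1, 22.3% of all genes tested were higher and 21.7% lower.

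Away from the clusters with several calls, the members that fell had varied known roles. ZNF503, a repressor that acts in striatal development, had 37.8, 103 and 97.4 CPM in the KO libraries, against 262, 255 and 277 CPM in the WT libraries (log2 fold change -1.69 ± 0.30 SE, adjusted p = 0.0123, kept in the 3 fits without a KO library and in none without a WT library). KO replicate 1 had the least, and the difference was -1.39 without it. ZNF608 had 13.4, 17.5 and 18.4 CPM in the KO libraries, against 38.2, 40.3 and 40.2 CPM in the WT libraries (-1.18 ± 0.13 SE, adjusted p = 0.00251), whereas its paralogue ZNF609 rose, with 80.7, 79.6 and 70.2 CPM in the KO libraries, against 53.6, 57.6 and 51.7 CPM in the WT libraries (0.60 ± 0.16 SE, adjusted p = 0.048, kept in 1 of 6 fits without a library, that without KO replicate 1). Both genes had separate groups, in opposite directions. ZNF609 was named after its values were seen, as the paralogue of ZNF608.

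ZNF598, an E3 ubiquitin ligase that marks collided ribosomes, had 50.6, 102 and 90.4 CPM in the KO libraries, against 144, 144 and 145 CPM in the WT libraries (log2 fold change -0.77 ± 0.20 SE, adjusted p = 0.0431). Every KO library was under every WT library, with KO replicate 1 the lowest, and the difference was -0.57 without it. ZNF775 (-1.12), ZNF513 (-1.31), ZNF572 (-1.55), ZNF789 (-0.87) and ZNF362 (-0.68) also fell, with adjusted p of 0.0121 to 0.0363. None of these calls of ZNF598, ZNF775, ZNF513, ZNF572, ZNF789 and ZNF362 was kept without KO replicate 3 or without WT replicate 1, 2 or 3, nor that of ZNF572 without KO replicate 2. Among rises outside the clusters with several calls, ZNF879 had 9.41, 5.57 and 8.62 CPM in the KO libraries, against 2.60, 3.87 and 1.89 CPM in the WT libraries (1.61 ± 0.37 SE, adjusted p = 0.0294, lost without KO replicate 3 or any WT library). The other 14 rises were ZNF678, ZNF672, ZNF142, ZNF717, ZNF518B, ZNF330, ZNF827, ZFP62, ZNF391, ZNF184, ZNF853, ZNF367, ZNF22 and ZFP90, with log2 fold changes of 0.56 (ZNF367) to 1.34 (ZNF678), adjusted p of 0.00658 to 0.0496 and calls kept in 1 to 4 of the 6 fits without a library. ZNF827, which recruits the NuRD remodelling complex to telomeres, had even levels in each group, with 25.9, 24.96 and 25.2 CPM in the KO libraries, against 12.9, 13.6 and 12.04 CPM in the WT libraries (1.08 ± 0.16 SE, adjusted p = 0.00723).

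Of the 191 members not called, 119 had a positive and 72 a negative log2 fold change, from -1.45 to 1.54, and 118 had overlapping groups. Each KO library lay above each WT library in 40 of the 191 and under in 33. Over all genes tested, called or not, these shares were 20.8% and 26.7%. By size alone, 7 of the 191 were at least 2-fold apart, ZNF670, ZNF654, ZSCAN23 and ZNF652 upward and ZNF425, ZNF385A and ZNF469 downward, with adjusted p of 0.0515 to 0.0933. ZNF652, for instance, had 126, 61.3 and 62.6 CPM in the KO libraries, against 44.6, 48.3 and 41.2 CPM in the WT libraries, with KO replicate 1 far above the other KO libraries. ZNF654, ZNF652 and ZNF385A were named after their values were seen. Without KO replicate 1, 50 of the 191 were called higher and 27 lower, beside 22.3% and 21.7% of all genes tested in that fit.

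The 5 members with the most counts were not called. ZNF703, a repressor amplified in luminal breast cancer, had 351, 948 and 804 CPM in the KO libraries, against 1160, 1119 and 1159 CPM in the WT libraries. All KO libraries were under all WT libraries, yet the spread within the KO libraries was wide (log2 fold change -0.66 ± 0.28 SE, adjusted p = 0.144). ZNF664 had 0.30 (adjusted p = 0.261), ZNF638, an RNA- and DNA-binding protein that recruits the HUSH silencing complex to unintegrated retroviral DNA, 0.58 (0.204), ZNF207, a spindle assembly protein, -0.01 (0.978) and ZNF24 -0.11 (0.784). Without KO replicate 1, ZNF703 (-0.38, adjusted p = 8.36e-06), ZNF24 (-0.43, 1.15e-05) and ZNF207 (-0.21, 0.0127) were called lower in edgeR.

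**Figure D4:**
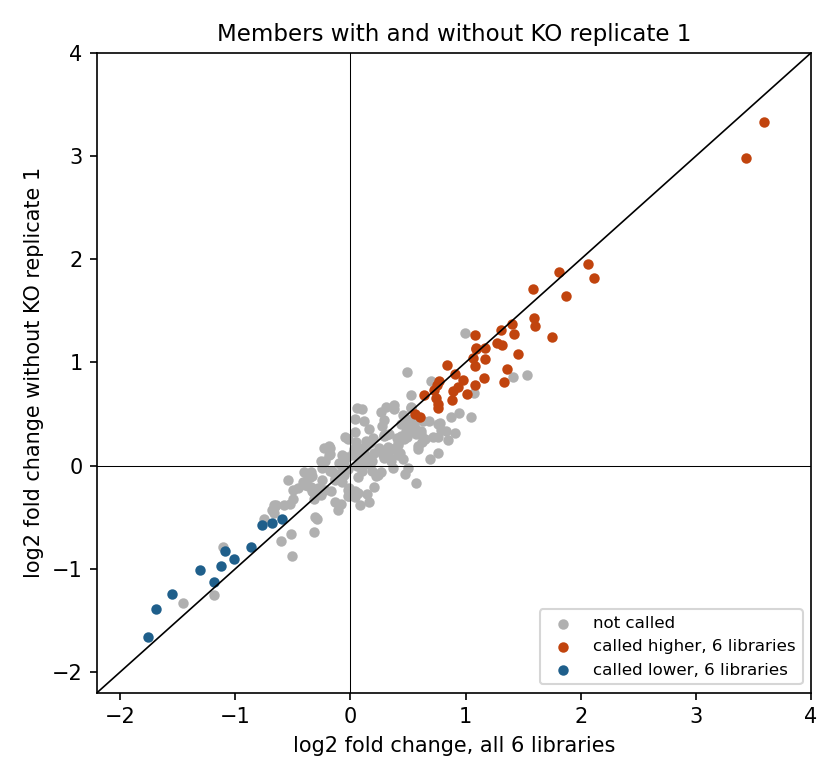
Log2 fold change (KO over WT) of the members with all 6 libraries (x axis) against that without KO replicate 1 (y axis), with the line of equality and members called with 6 libraries in colour; ZNF334 and ZNF727 lie beyond the axes and are not drawn. Every called member drawn keeps its direction, and most rises lie under the line, since 32 of 43 were smaller without KO replicate 1.

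The silencing machinery that KRAB zinc finger proteins recruit was followed as a list of 30 genes, of which 29 were tested. In the KO libraries 3 rose and 2 fell, or 10.3% and 6.90% of those tested, near the 8.64% and 6.5% of all genes tested, and the median log2 fold change was 0.05. The largest change was in MPHOSPH8, the chromodomain subunit of HUSH, which had 7.15, 13.5 and 12.3 CPM in the KO libraries, against 56.0, 59.2 and 60.6 CPM in the WT libraries. Every KO library was far under every WT library (log2 fold change -2.35 ± 0.19 SE, adjusted p = 0.000756, edgeR, call kept in all 6 fits without a library). MORC2, an ATPase that works with HUSH, rose by 1.16 on the log2 scale (adjusted p = 0.00739, kept in 4 of these 6 fits), TASOR2 by 0.97 (adjusted p = 0.0245, kept in 2) and SUMO2, a small protein modifier, by 0.82 (adjusted p = 0.00553, kept in 3).

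HDAC1, a histone deacetylase, fell by 0.51 (adjusted p = 0.0474, kept in 1 of 6 fits, that without KO replicate 1). TRIM28 itself had 497, 826 and 752 CPM in the KO libraries, against 599, 556 and 591 CPM in the WT libraries. In CPM, KO replicate 1 lay under the WT libraries and the other KO libraries above them. The scaling factors of the edgeR fit do not keep KO replicate 1 under the WT libraries. TRIM28 was not called (log2 fold change 0.32, adjusted p = 0.189, edgeR), nor was SETDB1 (-0.10, adjusted p = 0.709). Without KO replicate 1, 8 genes of the list were higher and 5 lower, against 22.3% and 21.7% of all genes tested in that fit. Of 11 activators of CpG-rich promoters, among them ZNF143, NRF1 and GABPA, 1 rose (YY1, log2 fold change 0.61, adjusted p = 0.032, kept in 2 of 6 fits), 0 fell in edgeR, DESeq2 or limma-voom or at an unadjusted edgeR p under 0.05, and the median was 0.18. Without KO replicate 1, 6 of the 11 were higher and 2 lower, beside the same 22.3% and 21.7% over all genes. Whether the level of MPHOSPH8 or of another gene of these lists bears on the members was not tested.

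Overlapping annotation limits part of the counts. Of the 248 members 133 overlap another annotated gene, as do 28 of the 57 called, and the count tables list 9.74 to 11.9% of reads as ambiguous in the KO libraries and 11.6 to 12.5% in the WT libraries. Zinc finger paralogues share similar finger exons, and no source used here says how reads in shared stretches or with several mapping places were treated.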

How the data were processed

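Poly(A)-selected RNA from 3 KO and 3 WT libraries had been sequenced, and the authors deposited 1 table of whole-number read counts per Ensembl gene and library. HISAT2 2.2.1, HTSeq 0.12.4, SAMtools 1.3.1 and GRCh38 are named in the submitters' processing notes; strand and multiple mapping are not given in the sources used here. Rows that name no gene were left out of library sizes: no-feature reads were 10.4 to 15.9% of the reads listed in KO and 8.75 to 9.87% in WT libraries, and ambiguous reads are given in the text. Per-base mitochondrial coverage was not used here.

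CPM used the summed gene counts. Differences were tested with edgeR 4.0.16 (quasi-likelihood F test, TMM factors, default filterByExpr, KO over WT, all 6 libraries, Benjamini-Hochberg over 17452 genes), and adjusted p-values in the text come from this fit. The SE of a log2 fold change is its size divided by the square root of F. The script was tested on simulated data. Intervals of counting error are not given, since replicates set the precision, and 3 counts over a group were taken as the floor. Alternatives were DESeq2 1.42.0, limma 3.58.1 (voom), other scalings and filters, the replicate number as a block, and fits that left out 1 library.

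Symbols, positions and promoters came from RefSeq tables, and 206 of 248 members matched a promoter, the first listed start of each gene. Protein sequences were not analysed here. Named genes were on-off members, the 12 largest rises and falls without overlap, called members of clusters with at least 2 calls, the 5 most counted, those nearest the minimum and up to 4 called per list and direction; other members are named to complete a cluster or as stated. The members and lists were chosen with earlier results of these data known, and the counts of genes around clusters were added after seeing the data.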

Additional observations from a re-analysis of the deposited data

How the results depend on the processing

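Counts of members higher and lower were 43 and 14 with all libraries. They were 49 and 17 with DESeq2, 40 and 15 with limma-voom, 43 and 14 with RLE size factors, 46 and 13 with upper-quartile factors, 41 and 11 with library totals only, 47 and 18 with no filter on low counts and 46 and 13 with at least 1 CPM in 3 libraries. Library totals moved the median log2 fold change of all genes to -0.08 and that of the members to 0.10. Leaving out 1 library gave 11 to 93 members higher, 3 to 41 lower and 644 to 7975 genes of any kind called, against 2641 with all 6. The members high in WT and off in KO libraries were 1 where the high group had to reach 2 CPM, and 1 to 2 without a library. The causes of these shifts were not tested. No called named member reversed its direction in any alternative run. Of those not called, ZNF251 (0.05 with all libraries) had a log2 fold change of -0.66 with limma-voom, -0.50 with the replicate block and -1.57 to 0.56 with 1 library left out. ZNF207 (-0.01) had 0.0041 with RLE size factors, 0.0076 with at least 1 CPM in 3 libraries and -0.21 to 0.13 with 1 library left out, and ZNF24 (-0.11) had -0.43 to 0.071 with 1 library left out. Of the 49 named members, 5 lost their call with library totals (ZNF513, ZNF212, ZNF598, ZNF362 and ZKSCAN4), 1 with upper-quartile factors (ZNF598) and 1 with no filter (ZKSCAN4); 2 gave no value at the stricter filter. The summed level of the chromosome 1 cluster had a log2 ratio of 1.23 on TMM-scaled CPM, against 1.13 on library totals. Cluster distances of 250 kb and 1 Mb gave 22 and 27 clusters, against 24.

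The replicate numbers did not pair the libraries: deviations of same-numbered KO and WT libraries correlated at -0.06, -0.03 and 0.00, and no KO library correlated best with its own number. With the replicate block, 15 members were higher, 5 lower and 969 genes called in all, and 25 of the 49 named members kept their call or side of the threshold.

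With 14982340 to 16278091 gene counts per library, ZNF727 rests on 13 to 29 counts per WT library and ZNF334 on 134 to 173, so the absence of counts in KO libraries is less firmly measured for ZNF727. With 3 libraries a group, 1 of them standing apart, a missed call says little about a small difference.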
